A study of Stylophora pistillata with 6 samples.

Results

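The 200 mRNAs described here were chosen because their levels were spread widely among 3 control nubbins of the reef coral Stylophora pistillata and narrowly among 3 nubbins kept in darkness, while the mean levels of both groups stayed close. They are 200 of the 36031 transcript models in the deposited table, of which 33152 are predicted mRNAs (XM accessions). RNA came from subapical branch tissue of nubbins, which are small fragments of a coral. Control nubbins lived under 12 h of light and 12 h of dark per day at 230 μmol photons per m² per s. Darkness nubbins had 24 h of dark per day for 6 months and showed a bleaching phenotype. Both groups were kept at 25 °C in Mediterranean seawater and received the same rotifers and artemia; the labels give no strain or genotype. Each group has 3 libraries, 1 per nubbin. The colony and tank of each nubbin and the hour of sampling are not given in the labels.

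Corals of this kind live with dinoflagellate algae inside the cells of their inner tissue layer, and in light the algae pass on fixed carbon to the animal. Many transcripts of corals and related animals rise and fall with the daily cycle of light and dark. A comparison of group means does not show how far the levels of a transcript spread among nubbins of 1 treatment.

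Levels are given in CPM, a transcript's estimated reads per 1000000 reads of its library, and spread as the SD of log2 CPM over the 3 libraries of a group. The choice went in steps. Of the predicted mRNAs, 10336 had whole-number estimates of at least 20 reads in all 6 libraries. Leaving out the 200 mRNAs of highest mean CPM left 10188, and 6885 of these had group means of log2 CPM within 1.5-fold of each other. These 6885 are called the candidates below, and the 200 with the largest SD in controls minus SD in darkness are the members. The difference of SDs ran from 0.45 to 1.50 among the members. Since spread and closeness of group means chose the members, both are descriptions here and carry no test.

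Library totals ran from 17819870 to 20218247 estimated reads in controls and from 29123228 to 33307386 in darkness. Control replicate 2 was the shallowest library. It had reads for 26609 transcripts, against 27976 and 28971 in the other controls and 29360 to 29506 in darkness, and its 20 most abundant transcripts took 16.3% of its reads, against 14.6% and 12.2% in the other controls. The edgeR common biological coefficient of variation over all tested transcripts was 0.669 among controls and 0.487 among darkness libraries. All results on spread below rest partly on control replicate 2, and some of the counts over members are also given without it.

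A gene symbol in RefSeq's annotation of jaStyPist1.2 was matched for 115 of the 200 members (57.5%). The share was 68.6% over the candidates and 51.9% over all transcript models in the deposited table. Every symbol of a member is a LOC number, which identifies a locus without naming its product. No function is therefore given for a member, and the tissue label could not be checked against marker genes. Each symbol below stands for 1 mRNA, and members with no symbol are named by accession.

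Among the members, the median SD of log2 CPM was 0.73 in controls (range 0.49 to 2.01) and 0.13 in darkness (range 0.01 to 0.54). Over all candidates the medians were 0.18 and 0.11. The members stood out by their control spread, as the choice requires. The highest control was a median of 2.57 times the lowest among members, at least 2-fold in 194 and at least 4-fold in 10, while the highest darkness library was a median of 1.19 times the lowest. In bulk tissue, fewer cells of a type and less RNA per cell cannot be told apart.

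**Figure D1:**
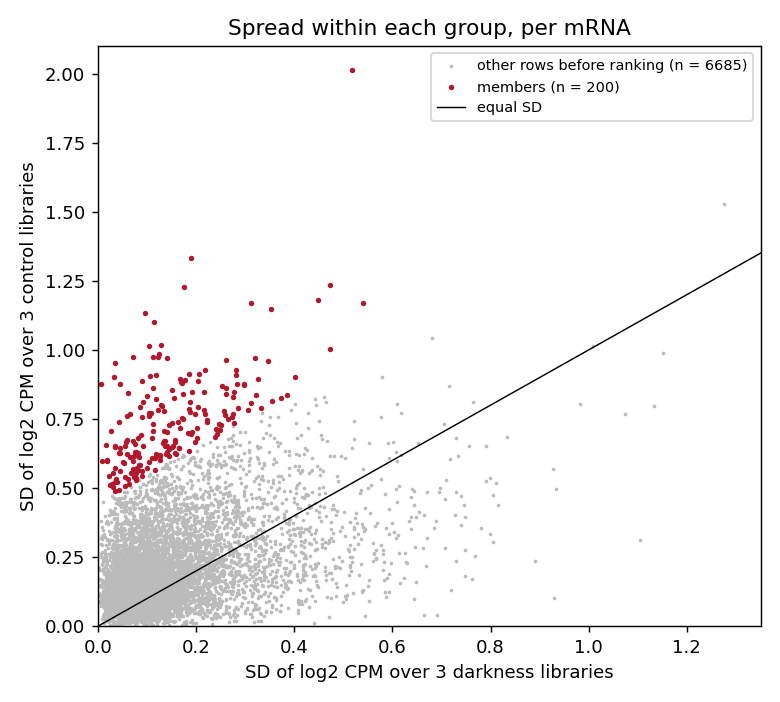
SD of log2 CPM over the 3 control libraries (vertical axis) against the 3 darkness libraries (horizontal axis) for each candidate mRNA, with members in red and the line of equal SD in black. The 200 members form the upper left edge of a continuous cloud and are not a separate group.

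The member with the widest spread was XM_022949265.1. Its levels were 59.1, 84.6 and 6.43 CPM in control replicates 1, 2 and 3, and 19.3, 26.3 and 39.5 CPM in darkness replicates 1, 2 and 3. Controls 1 and 2 lay above every darkness library and control 3 below every one, a range of 13.2-fold among controls. It is also among the less steady members in darkness, where the range was 2.04-fold. XM_022933060.1 had 5.92, 1.63 and 0.989 CPM in controls and 3.33, 3.39 and 2.68 CPM in darkness. Here control 1 was the high library, and its value in control 3 came from 20 reads, the minimum that the choice allowed.

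In 8 of the 12 members with the largest difference of SDs, control replicate 2 was the library farthest from the control median. XM_022931062.1 had 11.5, 3.37 and 17.3 CPM in controls and 11.03, 11.05 and 13.6 CPM in darkness. LOC111341992 had 6.54, 1.52 and 4.60 CPM in controls and 4.78, 5.25 and 5.60 CPM in darkness. LOC111333769 had 5.77, 1.80 and 5.79 CPM in controls and 5.12, 5.61 and 5.18 CPM in darkness. In all 3, control 2 was low and the darkness libraries lay near controls 1 and 3.

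LOC111328420 and LOC111339329 were nearly level in darkness. LOC111328420 had 6.23, 1.91 and 5.74 CPM in controls and 3.17, 3.15 and 3.30 CPM in darkness. LOC111339329 had 4.70, 1.74 and 5.24 CPM in controls and 2.45, 2.46 and 2.44 CPM in darkness. Both had their darkness libraries between the low control 2 and the other controls. LOC111343306 had this order too, with 4.34, 1.18 and 3.07 CPM in controls and 1.85, 1.77 and 2.06 CPM in darkness. XM_022922047.1 had 3.73, 1.18 and 4.2 CPM in controls and 3.49, 3.03 and 3.16 CPM in darkness, where every library lay between control 2 and control 1.

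Other patterns than a low control 2 also occurred among the 12. LOC111345079 was high in control 2, with 3.47, 11.5 and 2.62 CPM in controls against 4.62, 4.05 and 4.22 CPM in darkness. LOC111344179 was low in control 1, with 1.07, 4.04 and 3.17 CPM in controls against 3.49, 3.48 and 2.99 CPM in darkness. LOC111329867 was high in control 3, with 1.23, 1.57 and 4.01 CPM in controls against 2.48, 2.55 and 2.44 CPM in darkness. In each of these the library that stood apart lay outside the range of the darkness libraries.

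**Figure D2:**
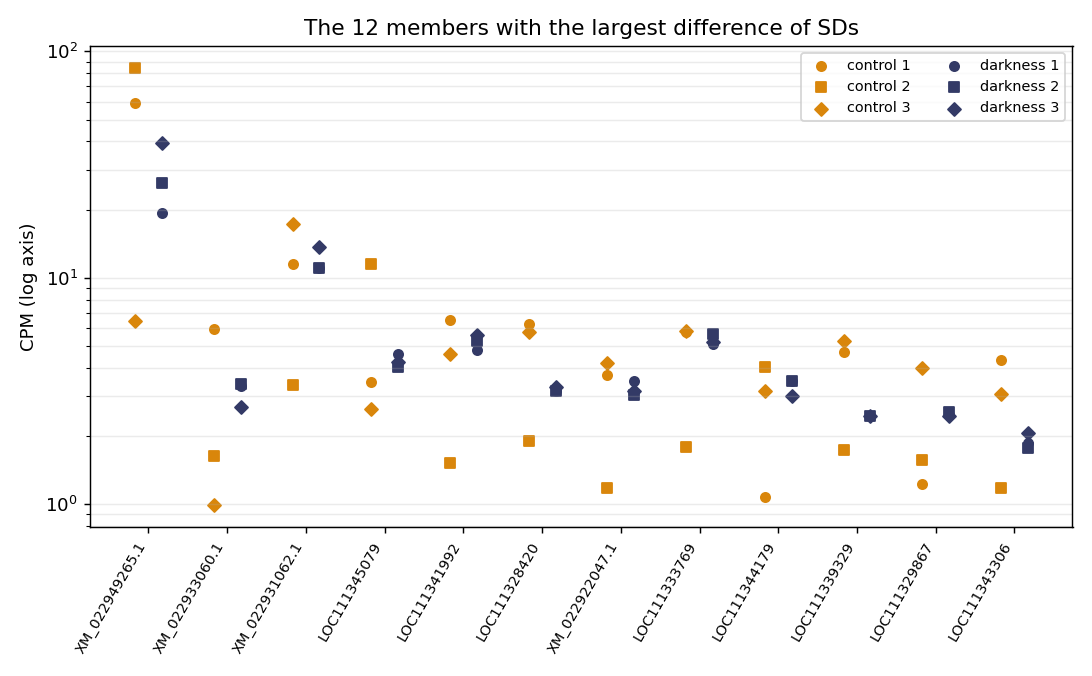
CPM on a log axis for the 12 members with the largest SD in controls minus SD in darkness, with 1 point per library (controls orange, darkness blue, replicates by marker shape). Control replicate 2 is the low outlying point in 7 of the 12, while the darkness points nearly coincide in most.

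The members were divided by the control library farthest from the median of the 3 controls and by its direction. Control 2 was farthest in 136 members, low in 106 and high in 30. Control 3 was farthest in 37, high in 26 and low in 11, and control 1 in 27, low in 15 and high in 12. Over the 6885 candidates control 2 was farthest in 44.3% and was low in 28.9%, against 68.0% and 53.0% of the members. The members are chosen for spread among these same libraries, so the 2 sets of shares are given side by side with no test.

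In the 106 members with a low control 2, that library held a median of 0.439 times the mean of controls 1 and 3 (range 0.234 to 0.556). Relative to the mean of the darkness libraries, control 2 held a median of 0.459 and the mean of the other controls 1.07. The darkness libraries lay near controls 1 and 3 in the median member of this class. The class and the bound on group means limit where they can lie, so this is a description only. The members of this class with the largest deviation were XM_022938927.1 and XM_022952859.1. XM_022938927.1 had 9.80, 2.75 and 12.4 CPM in controls and 5.47, 7.09 and 11.4 CPM in darkness, the widest range in darkness among all members (2.09-fold). XM_022952859.1 had 5.97, 1.68 and 7.32 CPM in controls and 5.88, 3.90 and 6.04 CPM in darkness.

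In the 30 members with a high control 2, that library held a median of 2.43 times the mean of controls 1 and 3 and 1.94 times the mean of the darkness libraries. The other controls held 0.754 times the darkness mean. XM_022951339.1, which with LOC111345079 deviated most in this class, had 11.5, 40.01 and 13.6 CPM in controls and 11.8, 14.0 and 12.7 CPM in darkness. Its 713 reads in control 2 compare with 226 and 275 in the other controls.

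Members in which control 1 or control 3 stood apart numbered 64. With control 1 low, LOC111321165 had 1.07, 3.76 and 4.90 CPM in controls and 3.77, 4.29 and 2.82 CPM in darkness. XM_022932183.1 had 1.12, 3.37 and 3.81 CPM in controls and 2.04, 3.12 and 2.27 CPM in darkness. With control 1 high, LOC111327789 had 5.0, 1.40 and 1.63 CPM in controls and 1.79, 2.79 and 3.40 CPM in darkness. In these 3 the controls reached beyond both ends of the darkness range. With control 3 high, XM_022945608.1 had 1.79, 1.68 and 4.60 CPM in controls and 1.92, 2.85 and 1.82 CPM in darkness. With control 3 low, XM_022937717.1 had 26.8, 23.7 and 5.74 CPM in controls and 15.1, 28.3 and 24.3 CPM in darkness, so only control 3 lay outside the darkness range.

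**Figure D3:**
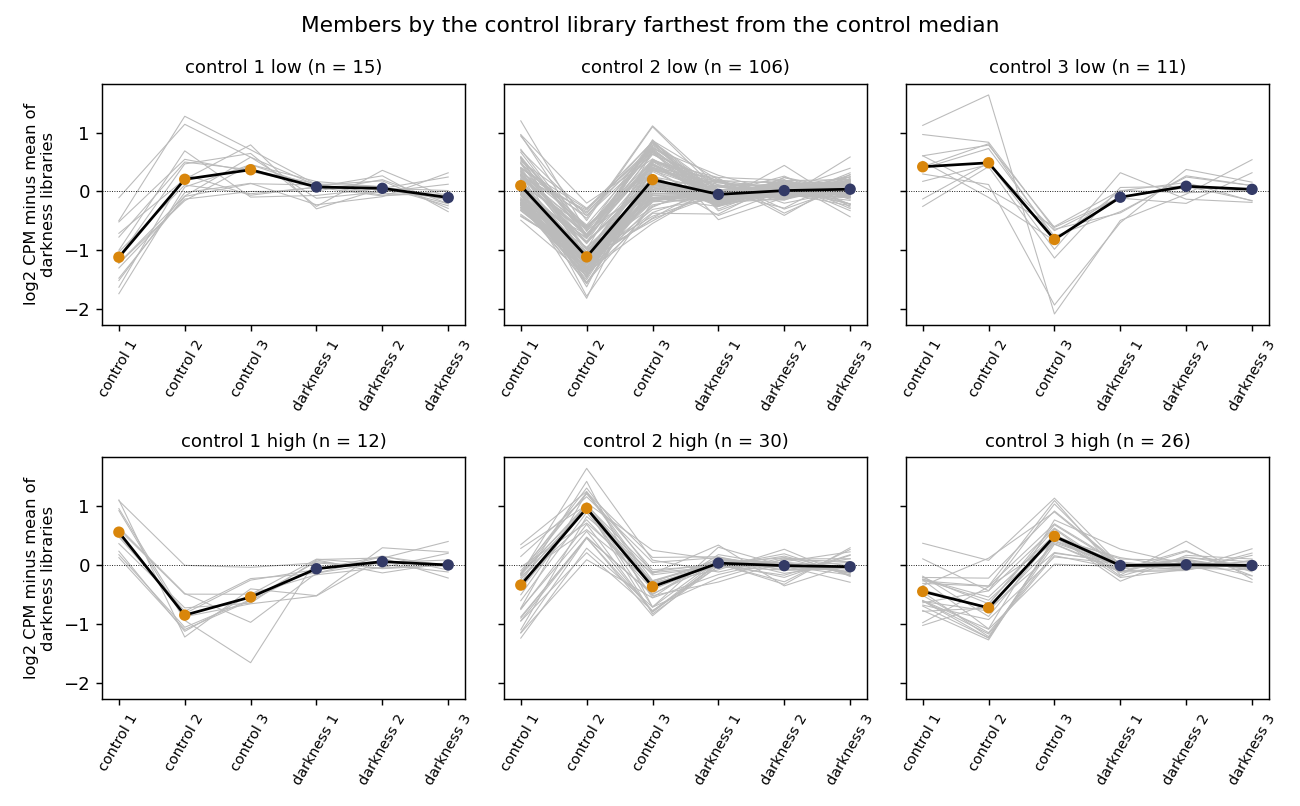
Log2 CPM minus the mean of the 3 darkness libraries, per library, for members grouped by the control library farthest from the control median; grey lines are members, points and black lines are class medians. Control 2 low is the largest class with 106 members. In every class the darkness medians lie near 0, which the subtraction of the darkness mean and the choice of members both favour.

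Darkness levels of the members usually lay inside the range of the controls. A wide control spread, a narrow darkness spread and close group means favour this, so the shares here are descriptions only. In 148 members (74.0%) at least 1 control was below all darkness libraries and at least 1 above them, against 19.0% of the candidates. For controls 1 and 3 alone, which are fewer libraries, this held in 64 members (32.0%) and 7.77% of the candidates. Control 2 was below all darkness libraries in 141 members (70.5%, against 46.8% of the candidates). Control 1 was below them in 90 (45%, against 39.1%) and control 3 in 66, near its candidate share of 33.4%. Control 3 was above them in 91 (45.5%, against 37.3%). Control 1 was above them in 68, near its candidate share of 33.3%. Control 2 was above them in 47 (23.5%), less often than among the candidates (31.5%). The groups did not overlap in 8 members, all lower in controls. Over the 26906 transcripts tested, 44.1% had groups that did not overlap; the bound on the group means and the wide control spread both limit this count among members, so nothing is read from it.

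The same holds for the test of darkness against control. None of the 200 members passed an adjusted p under 0.05 in the quasi-likelihood test of edgeR, and 1 had an unadjusted p under 0.05. Over the candidates, which met the same bound on group means, these shares were 10.7% and 25.8%. Of all tested transcripts 18.5% passed the adjusted threshold. DESeq2 called 1 of the 200, against 31% of the transcripts it tested. The choice used this contrast.

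Most members were of low abundance. Their mean level had a median of 4.77 CPM (range 1.38 to 245), against 21.7 CPM over the candidates. In 10 equal parts by mean CPM, the lowest part held 80 members (11.6% of its mRNAs), the next 47, and the upper 5 parts together 16. A ranking by difference of SDs favours low levels, where SDs are wider. The median control SD of the candidates was 0.38 in the lowest part and 0.10 in the highest. In 89 members the lowest of the 6 estimates was between 20 and 39 reads, against 6.81% of the candidates. Of the 52 members that kept a difference of SDs of at least 0.45 without control 2, 28 lay in the lowest of the 10 parts. Control 2 gave the lowest estimate in 69.0% of members and 66.8% of candidates. Median estimates of the members were 101.5, 64 and 111.5 reads in controls 1, 2 and 3.

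The control spread of the members was wider than counting error. At the members' read numbers, Poisson counting alone would give an SD of log2 CPM of 0.17 in the median member's controls and 0.12 in its darkness libraries. The observed control SD was a median of 4.46 times its counting value, at least 3 times in 182 members (91.0%) and never under 2.22 times. Candidates also exceeded counting error, with a median of 2.52 times and 39.1% at 3 times or more. In darkness the observed SD was a median of 1.23 times the counting value, and 76 members (38.0%) were at or under it, against 15.2% of the candidates. The choice favours both a large control SD and a small darkness SD, so these ratios are descriptions. Over controls 1 and 3 alone the median ratio was 2.56, and 79 members reached 3 times. For the candidates it was 1.74, and 1708 of the 6885 reached 3 times.

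**Figure D4:**
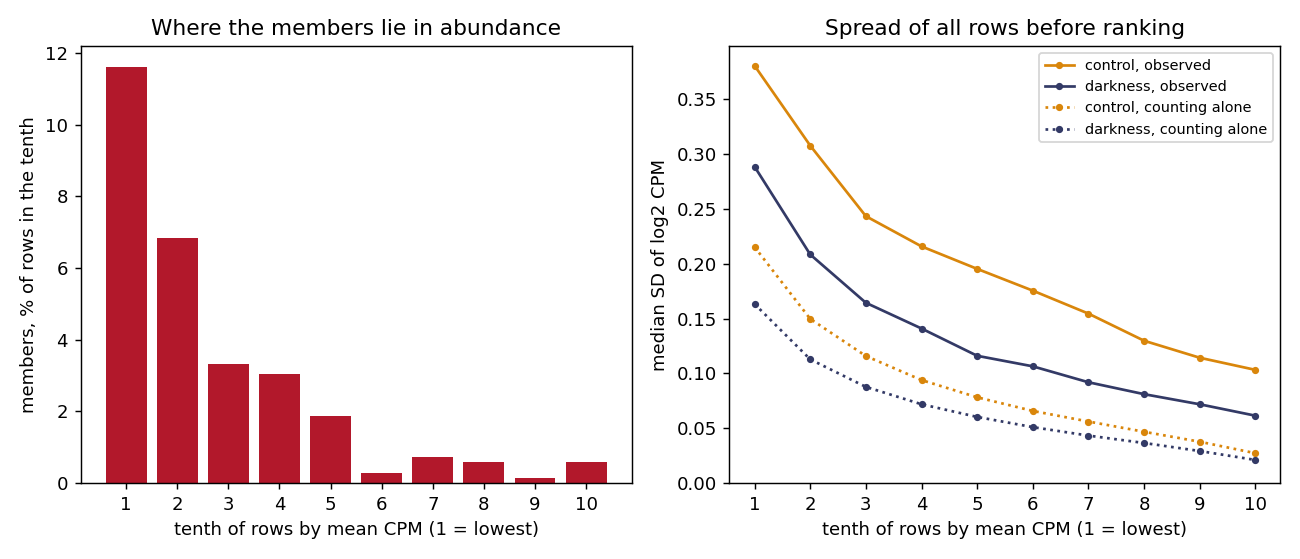
Left, percent of mRNAs that are members in each of 10 equal parts of the candidates by mean CPM; right, median SD of log2 CPM of all candidates in each part, observed (solid) and from counting alone (dotted), for controls (orange) and darkness (blue). Members fall from 11.6% of the lowest part to 0.581% of the highest, and observed control spread exceeds darkness spread in every part.

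Only 50 members reached a mean of 10 CPM. The 8 most abundant are those for which counting error matters least. LOC111334385 was the highest, with 223, 374 and 189 CPM in controls and 232, 227 and 224 CPM in darkness. Control 2 alone was high, with 6666 reads, and the control SD was 24.3 times its counting value. LOC111320773 had the same form, with 157, 361 and 144 CPM in controls and 190, 178 and 162 CPM in darkness. LOC111335645 had 73.1, 126 and 67.3 CPM in controls and 81.9, 81.3 and 85.9 CPM in darkness. LOC111341409 differed in that control 1 was low as well, with 65.0, 154 and 98.2 CPM in controls and 129, 155 and 150 CPM in darkness, so its control 2 lay inside the darkness range and its controls 1 and 3 below it.

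Among the other abundant members control 2 was low or control 3 high. XM_022927296.1 had 256, 137 and 336 CPM in controls and 179, 220 and 212 CPM in darkness, with control 2 below and controls 1 and 3 above all darkness libraries. LOC111321307 had 61.4, 32.0 and 68.9 CPM in controls and 71.2, 70.6 and 70.4 CPM in darkness. Its 3 darkness libraries were within 1.01-fold of each other and all controls lay below them. LOC111332195 had 60.7, 49.6 and 103 CPM in controls and 46.8, 49.9 and 44.0 CPM in darkness. LOC111322899 had 50.6, 34.2 and 72.5 CPM in controls and 41.3, 41.5 and 45.3 CPM in darkness. In both of these control 3 was the highest library. Without control 2 the difference of SDs was between −0.02 and 0.29 in 7 of the 8 and 0.45 in LOC111332195; it changed sign in LOC111320773.

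**Figure D5:**
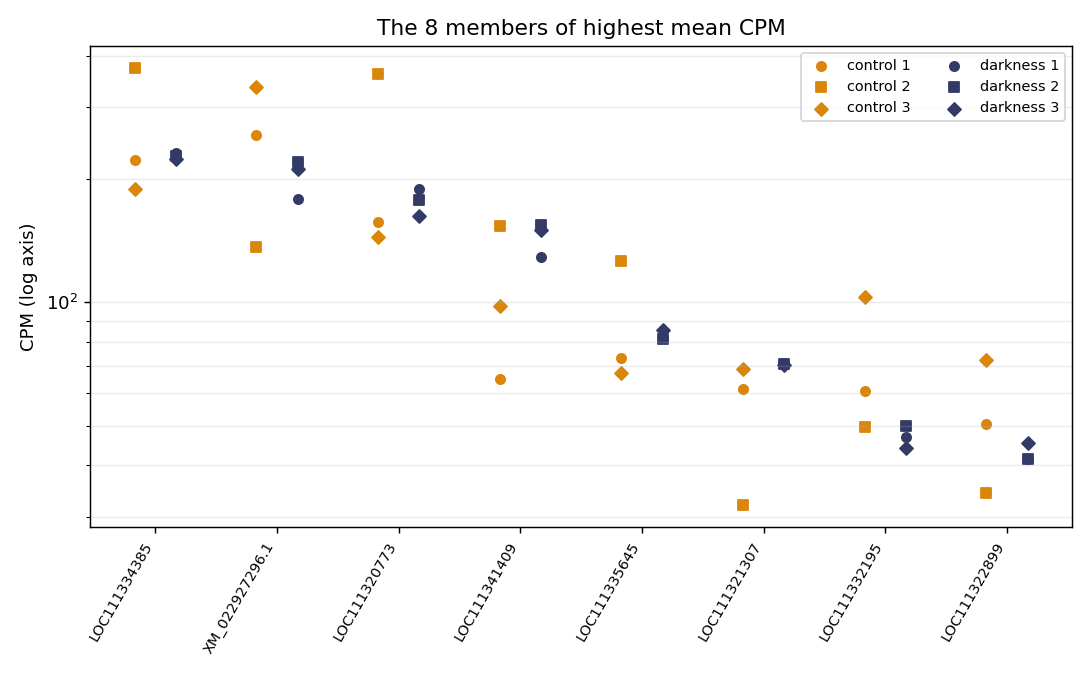
CPM on a log axis for the 8 members of highest mean CPM, 1 point per library (controls orange, darkness blue, replicates by marker shape). Control replicate 2 is the highest control in 4 of them and the lowest in the other 4, and the darkness points lie close together in all 8.

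Without control replicate 2, the median SD of the members over controls 1 and 3 fell from 0.73 to 0.32, against 0.13 over the 3 darkness libraries. The SD was larger in controls in 156 of the 200, against 51.2% of the candidates. The choice used controls 1 and 3 and favoured a small darkness SD, so these values are descriptions only. Past the difference of 0.45 that the last member had, 52 members remained. Of the 52, 51 were among the 64 members in which control 1 or 3 stood apart and 1 among the 136 in which control 2 did, a split that the classes fix, since leaving out the farthest library keeps the closest pair. Controls 1 and 3 differed by a median of 2.31-fold in the 52, and control 3 was the higher in 33. When the whole choice was repeated without control 2, 53 of the 200 members were chosen again.

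Over all 6885 candidates the spread was larger in controls in 69.5% with all libraries. The share was 51.2% without control 2, 65.2% without control 1 and 58.1% without control 3. With 1 darkness library left out it was 70.2% to 77.5%. Each of these settings compares an SD over 2 libraries with an SD over 3, which by itself moves the share. How much of each shift this accounts for was not tested. In the direction opposite to the members, 22 candidates had a darkness SD larger than the control SD by at least 0.45. Of these, 18 were in the lowest of the 10 parts by mean CPM. The largest such difference was that of LOC111329098, with 1.48, 1.29 and 1.43 CPM in controls and 1.10, 0.78 and 2.71 CPM in darkness, followed by LOC111337199 with 2.91, 1.91 and 2.57 CPM in controls and 1.48, 4.83 and 6.18 CPM in darkness. Without control 2 the opposite count was 62 and the count in the direction of the members 136. What sets control 2 apart was not tested.

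The limit of the set is a rank and not a gap in the values. The members just inside, LOC111335645, XM_022947199.1 and LOC111335782, had a difference of SDs of 0.449, 0.449 and 0.448. The candidates just outside, XM_022940990.1, XM_022943911.1 and LOC111329696, all had 0.447. XM_022941778.1 of LOC111335782 had 9.85, 5.28 and 10.8 CPM in controls and 9.05, 10.4 and 9.13 CPM in darkness. XM_022940990.1, outside, had 3.27, 1.63 and 3.31 CPM in controls and 1.82, 1.92 and 2.20 CPM in darkness.

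The 115 matched members belonged to 115 different genes, so no matched gene gave more than 1 matched member. In 2 of them the table lists another transcript of the gene, for LOC111327611 and LOC111331920, and both of those had 0 reads in all 6 libraries. No other transcript of a matched member's gene could therefore be compared with it. Whether members with no symbol share a gene with another member is not known. The gene order of jaStyPist1.2 was restricted to 14667 placed genes with a deposited transcript. Of its 14653 adjacent pairs, 229 held a member and 1 held 2 members, LOC111328470 and LOC111328460. Nothing is read from this 1 pair. LOC111328470 had 2.30, 5.89 and 2.03 CPM in controls and 3.36, 2.94 and 2.64 CPM in darkness, while LOC111328460 had 3.52, 1.52 and 3.07 CPM in controls and 3.05, 2.88 and 3.54 CPM in darkness. Control 2 was high for one neighbour and low for the other.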

How the data were processed

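The authors deposited estimated counts of reads per RefSeq transcript model, not scaled to depth, in 6 columns assigned to samples by description; 0 columns were left unused. The submitters' processing notes name DESeq2, fastp and Salmon 0.11.4; roles, build and settings are not given there. Estimates that are not whole (23.6% to 33.6% of a library) may reflect reads divided between similar transcripts; only whole estimates enter the members. CPM used column totals, and log2 CPM had no pseudocount. The counting SD is the Poisson SD of log2 counts at the observed estimates. For darkness against control, estimates were rounded, filtered with filterByExpr, TMM-scaled and tested with edgeR 4.0.16 (robust quasi-likelihood fit, group only) in R 4.3.3, with Benjamini-Hochberg adjustment; DESeq2 1.42.0 was an alternative. No libraries of a group were duplicates: their counts gave a chi-square of at least 27.3 per degree of freedom. Ranking and test were checked on simulated data. P-values cover the spread between these nubbins only, and counting errors cover counting only. The members, lists and rule for named mRNAs were chosen with earlier results of these data known: the 12 with the largest difference of SDs, the 8 of highest mean CPM, the 2 of largest deviation per class, those at the limit and adjacent members. The 22 opposite candidates were named after their values were seen. Product-name lists, sequence features and protein identity were not analysed here.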

Additional observations from a re-analysis of the deposited data

How the results depend on the processing

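The members depended strongly on how they were chosen. Of the 200, 147 were chosen again with TMM scaling, 138 with RLE scaling and 158 with libraries thinned to 1 depth. The number was 92 with a minimum of 50 reads and 128 with a minimum of 10. It was 51 with fractional estimates allowed, 77 with no bound on the group means and 44 when ranked by the ratio of SDs. With fractions allowed 11272 mRNAs competed for the 200 places, and with no bound 10188, against 6885. A minimum of 50 left 6234 and takes out every member with a lower estimate. Leaving out 1 library gave 53 (control replicate 2) to 152. The median control SD stayed between 0.64 and 0.73 under TMM scaling, thinning and a pseudocount of 0.5, and ran from 0.32 to 0.83 with 1 library left out; the darkness median was 0.15 after thinning and between 0.10 and 0.13 in the other settings. Control 2 was farthest from the control median in 134 to 136 members under those 3 settings. The 22 candidates of opposite direction became 39 after thinning, 8 with the pseudocount and 31 to 62 with 1 library left out, where an SD rests on 2 libraries. All 32 named members kept a larger SD in controls, except 3 without control 1, 7 without control 2 and 3 without control 3. Transcripts called for darkness (4985) numbered 4981 with RLE scaling, 4418 unfiltered, 9467 in DESeq2 and 2121 to 4466 with 1 library left out. A replicate block in the fit left 1386, but same-numbered libraries deviated together at only −0.04, −0.03 and 0.03, and no label pairs them. Causes were not tested. Depth limits the members most in control 2, where 20 reads are 1.12 CPM.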

Other observations

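Transcripts that the choice could not take showed a like imbalance. Of 349 non-coding models (XR accessions) with whole estimates of at least 20 reads in every library and group means within 1.5-fold, the control SD was the larger in 66.5%, and 14 (4.01%) passed the same difference of 0.45, against 1 in the opposite direction. Among the candidate mRNAs the members are 2.90%, against 22 candidates in the opposite direction. With fractional estimates included there were 695 such models, with the larger SD in controls in 70.8%, and 45 (6.47%) passed the difference, against 7 in the opposite direction. Control 2 was the low library farthest from the control median in 19 of the 45. The largest difference was that of XR_002696259.1, with 5.97, 1.74 and 12.3 CPM in controls and 6.22, 8.19 and 4.95 CPM in darkness. LOC111327352, a matched non-coding model among the 6 largest, was low in control 3 instead, with 49.0, 48.1 and 9.94 CPM in controls and 23.7, 44.2 and 38.2 CPM in darkness.

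Among 4387 mRNA models with a fractional estimate in at least 1 library, 352 (8.02%) passed the difference and 113 passed it in the opposite direction. Estimates with fractions can move when reads are divided differently between similar transcripts, and the part this plays was not tested. These transcripts come from the same 6 libraries, so they are not independent evidence on the spread of controls.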
